A study of Mus musculus with 4 samples.

Results

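This report describes 10 mouse genes that handle haem and iron, out of 11111 genes in the series' expression table. They are Hmox1, Slc48a1, Blvra, Blvrb, Slc40a1, Fth1, Ftl1, Tfrc, Cp and Steap4, found by their gene symbols, and all 10 were in the table, each averaging at least 50 reads per library. They were selected on function and on their log2 differences between Reg1-MOs and Ctrl MO in these same libraries, the only contrast of the series; there was no numeric threshold. Their differences between the groups are therefore given as a description, without a test.

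The RNA came from macrophages grown from bone marrow of C57BL/6 wild-type mice over 7 days, with fresh medium on day 4. The control group (Ctrl MO, 2 libraries) received a control morpholino, and the other group (Reg1-MOs, 2 libraries) received morpholinos against Regnase-1. Both morpholino treatments were at 2 µM with the carrier Endoporter (6 µl/ml) for 24 hours, and all cells of both groups then received lipopolysaccharide (LPS, a bacterial cell wall component) at 10 ng/ml for 4 hours, so no library shows the unstimulated state. Morpholinos are antisense oligomers that block RNA sites without cutting the RNA, and these were aimed at the transcript of the RNase Regnase-1 (gene Zc3h12a), which limits its own mRNA. The table names the Reg1-MOs libraries MO1 and MO2, as the labels name the targeting morpholinos, and it is unclear if a library received 1 of these or both. The labels do not say whether libraries came from separate mice or cultures, so every error and p below reflects the scatter of these libraries alone and could be technical.

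Macrophages take up senescent red cells and recycle their iron. Haem released in the phagolysosome is carried to the cytosol by the haem transporter HRG1 (Slc48a1) and is opened by haem oxygenase 1 (Hmox1) into biliverdin, carbon monoxide and iron. Biliverdin reductases (Blvra and Blvrb) reduce biliverdin, ferritin heavy and light chains (Fth1 and Ftl1) store the iron in a hollow shell, and ferroportin (Slc40a1) exports it. Ceruloplasmin (Cp) oxidises exported iron so that transferrin can bind it, the transferrin receptor (Tfrc) takes transferrin-bound iron up, and Steap4 is a metalloreductase.

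Several of these mRNAs carry iron-responsive elements, hairpins bound by iron regulatory proteins when iron is scarce. In the 5' untranslated region such a hairpin blocks translation when bound, and in the 3' untranslated region it protects the mRNA from decay. A hairpin of this form was searched for in the GENCODE M21 transcripts as a C, 5 bases, the loop CAGTGN and 5 bases that pair with the first 5 (A-T, G-C or G-T), on the sense strand only. It was found in the 5' untranslated region of 3 members and of 22 of 10892 protein-coding genes in the table (0.202%), and in the 3' untranslated region of 1 member and of 87 of these genes (0.799%). The sites are shown so that the storage and export genes can be set beside the receptor gene. Capitals mark the loop, and coordinates are on GRCm38.

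Fth1, 5' untranslated region, chr19:9982732-9982761, plus strand: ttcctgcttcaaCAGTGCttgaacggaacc
Ftl1, 5' untranslated region, chr7:45459778-45459807, minus strand: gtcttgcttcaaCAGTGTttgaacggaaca
Slc40a1, 5' untranslated region, chr1:45925464-45925493, minus strand: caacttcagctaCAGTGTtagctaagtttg
Tfrc, 3' untranslated region, chr16:32631219-32631248, plus strand: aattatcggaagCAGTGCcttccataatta
Tfrc, 3' untranslated region, chr16:32631598-32631627, plus strand: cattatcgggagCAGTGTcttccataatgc
Tfrc, 3' untranslated region, chr16:32631663-32631692, plus strand: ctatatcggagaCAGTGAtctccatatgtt
Tfrc, 3' untranslated region, chr16:32631710-32631739, plus strand: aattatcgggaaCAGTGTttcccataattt

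A match describes the letters only. The other 6 members held no match in their untranslated regions. Promoter windows of 300 bases from RefSeq (GRCm38.p6) were given for 7 of the 10 members, with none for Hmox1, Slc48a1 and Slc40a1. On either strand, the core of the antioxidant response element, TGACNNNGC, lay in the window of Blvra and in 12.4% of all 32851 windows. The stress response element core GCTGAGTCA lay in no member's window and in 0.454% of all windows.

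The libraries held 23369753 to 25213695 reads over the table's genes, recovered from the deposited log2 values. The targeted gene Zc3h12a had 3407 and 3572 control reads against 7799 and 6753, 2.14-fold higher (limma adjusted p = 0.000401). These are RNA data only, and whether Regnase-1 protein or its activity was lower or higher with Reg1-MOs was not tested. The macrophage markers were present at similar summed levels, with all 10 of 10 measured and a summed Reg1-MOs level 0.933 times that of Ctrl MO. Both Reg1-MOs sums (23087 and 23482 normalized units) lay below both Ctrl MO sums (24866 and 25040). By limma 1 of these markers rose and 1 fell. Of 12 erythroid markers, only Epor had values analysed here, at 4 to 6 reads per library. Neutrophil markers (9 of 10 measured) stood at 0.893 times the Ctrl MO level, and their ranges overlapped. Stromal cell and fibroblast markers (9 of 12 measured) fell, all 9 of them by limma, to 0.453 times the Ctrl MO level, from 226 and 232 to 96 and 112 normalized units. Kit, the only 1 of 8 mast cell and basophil markers measured, also fell by limma, to 0.63 times. In bulk RNA, fewer cells of a type and less RNA per cell cannot be told apart.

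**Figure D1:**
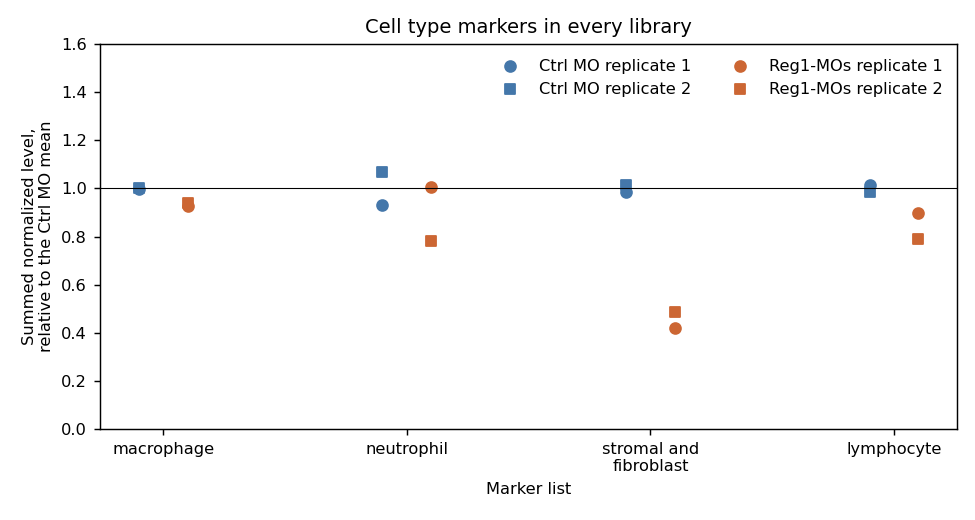
Summed normalized level of 4 lists of cell type markers in each library (points; circles replicate 1, squares replicate 2), relative to the mean of the 2 Ctrl MO libraries (line at 1). The stromal and fibroblast markers of both Reg1-MOs libraries lie below 0.5, while the macrophage markers lie near 1.

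Among the members, Slc48a1 (haem transport to the cytosol), Hmox1 (haem opening), Fth1 and Ftl1 (iron storage) and Slc40a1 (iron export) were higher with Reg1-MOs. Hmox1 was 16.1-fold higher, ferroportin 5.43-fold, the haem transporter gene Slc48a1 2.56-fold, ferritin light chain 1.91-fold and ferritin heavy chain 1.68-fold (2 libraries per group). The reductases of biliverdin stood close to the control level, and Cp and Steap4 were lower, 1.81-fold and 2.78-fold. At a limma adjusted p of 0.05 across all genes, 5 members rose (6.22% of all genes did) and 2 fell (6.03% of all genes did). The members' median log2 difference was 0.50 and that of all genes was -0.03. Since the members were chosen with this contrast known, nothing is read from these counts.

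Groups did not overlap, with both Reg1-MOs libraries above both Ctrl MO libraries, in 6 members (27.1% of all genes) and, with both below, in 3 members (31.8% of all genes). This spread of only 2 libraries a side is why the size of each difference is given beside its standard error (SE, the moderated error of the log2 difference). An exact permutation test of 2 against 2 libraries cannot give a two-sided p below 0.333.

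**Figure D2:**
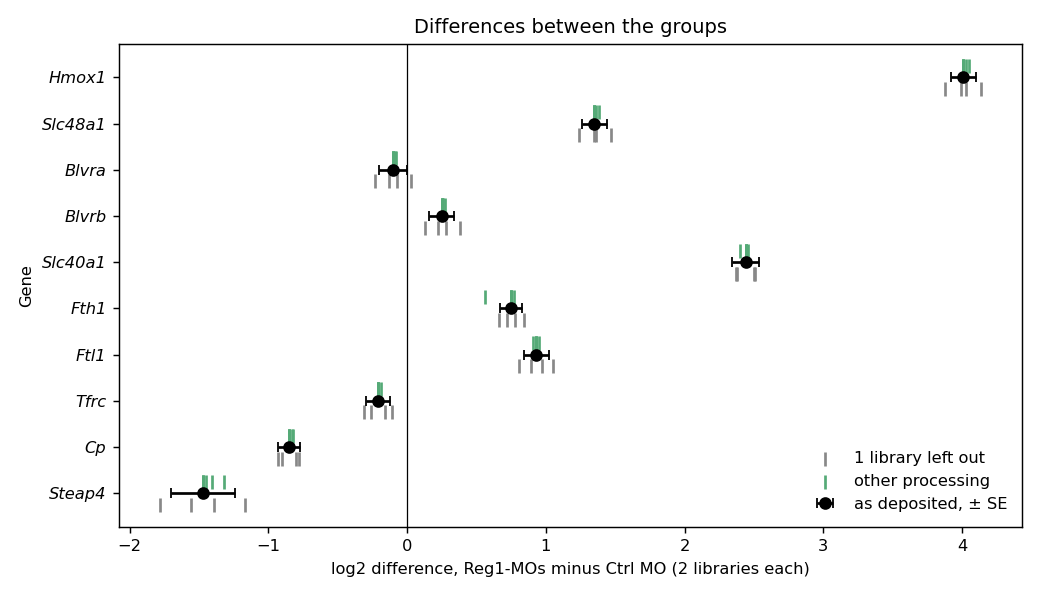
Difference of each of the 10 genes between Reg1-MOs and Ctrl MO on the log2 scale (black points, bars are the SE), with the value when 1 library is left out (grey ticks below) and under other processing (green ticks above). Hmox1 at 4.01 and Slc40a1 at 2.44 stand far to the right, and Blvra, at -0.10, is the only gene with ticks on both sides of 0.

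Slc48a1 (chromosome 15, 97778520 to 97792692, plus strand, GRCm38, as for all positions here) encodes the transporter that brings haem out of the phagolysosome. It had 2151 and 2154 reads in the Ctrl MO libraries and 6052 and 4736 in the Reg1-MOs libraries. The log2 difference was 1.35 (SE 0.09), and every Reg1-MOs library exceeded every Ctrl MO library by 2.36-fold to 2.77-fold on the normalized scale. The control libraries were nearly identical, and the spread lay between the Reg1-MOs libraries. Slc48a1 shares exonic bases with Hdac7 on the opposite strand, which had 185 to 238 reads. The strand setting of the authors' counting is not given in the sources used here.

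Hmox1 (chromosome 8, 75093621 to 75100589, plus strand) encodes the inducible enzyme that opens the haem ring, the step that frees the iron. The Ctrl MO libraries held 1779 and 1825 of its reads and the Reg1-MOs libraries 32264 and 24808. On the deposited log2 scale these are 6.56 ± 0.03 and 10.57 ± 0.18 (SD, n = 2), a difference of 4.01 (SE 0.09). The difference was the highest of all 11111 genes, and the smallest ratio between any Reg1-MOs library and any Ctrl MO library was 14.6. Its share of the table's reads went from 0.00714% and 0.00724% to 0.131% (Wilson 95% interval 0.1295% to 0.1323%) and 0.106% (0.1048% to 0.1075%), intervals that cover counting error only.

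Hmox2 encodes the constitutive haem oxygenase, which carries out the same reaction. It had 2253 and 2140 control reads against 2533 and 2036, a log2 difference of 0.09 (SE 0.08, limma adjusted p = 0.531), and its groups overlapped. Per length of mRNA, the ratio of Hmox1 to Hmox2 was 0.871 and 0.94 in the Ctrl MO libraries and 14 and 13.4 in the Reg1-MOs libraries. The inducible form was thus slightly below the constitutive form in both controls and far above it in both treated libraries.

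The biliverdin reductases reduce forms of biliverdin. Blvra (chromosome 2, 127070665 to 127097084, plus strand), the main biliverdin reductase of adult tissue, had 874 and 910 reads in the controls against 926 and 708. Its log2 difference was -0.10 (SE 0.10), the groups overlapped, and without Reg1-MOs replicate 2 it was 0.03. Blvrb (chromosome 7, 27447978 to 27466144, plus strand), a flavin reductase that also reduces the fetal biliverdin isomer, had 3454 and 3319 reads against 4474 and 3442, a log2 difference of 0.25 (SE 0.09). Leaving out Reg1-MOs replicate 2 gave 0.38, and leaving out replicate 1 gave 0.13. So the mRNA of the enzyme that makes biliverdin was many-fold higher. Neither of the 2 reductase genes differed by more than 1.33-fold between any pair of libraries from the 2 groups.

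Ferritin was the most abundant product among these genes. Fth1 (chromosome 19, 9980598 to 9985098, plus strand), the heavy chain with ferroxidase activity, had 187314 and 180431 reads in the controls and 334121 and 271278 in the treated libraries. The log2 difference was 0.75 (SE 0.08), and 0.56 with quantile normalization. Ftl1 (chromosome 7, 45457944 to 45459884, minus strand), the light chain that helps the iron core form, had 52222 and 49328 reads against 106804 and 83032, a log2 difference of 0.93 (SE 0.09). Both chains were higher in both Reg1-MOs libraries, and neither pair of groups overlapped.

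By mean reads, Fth1 ranked 2 in the table and Ftl1 ranked 34. Together they made up 0.962% (Wilson 95% interval 0.958% to 0.9657%) and 0.911% (0.9075% to 0.915%) of the table's reads in the Ctrl MO libraries. In the Reg1-MOs libraries they made up 1.79% (1.783% to 1.794%) and 1.52% (1.511% to 1.521%). Per length of mRNA, Fth1 exceeded Ftl1 2.32-fold and 2.37-fold with Ctrl MO and 2.03-fold and 2.12-fold with Reg1-MOs. Both ferritin genes have processed copies in the genome, and how reads shared with such copies were counted is not given in the sources used here. Their absolute levels and this ratio are uncertain for that reason.

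Slc40a1 (chromosome 1, 45908068 to 45926523, minus strand) encodes ferroportin, the exporter of iron from the cell. Its reads were 243 and 222 in the controls and 1351 and 1118 in the treated libraries. The log2 difference was 2.44 (SE 0.10), rank 10 of all genes from the highest, and the ratio between libraries of the 2 groups ran from 4.93 to 5.97. The 3 members with a hairpin in the 5' untranslated region, which were chosen with this contrast known, stood at log2 differences of 0.75, 0.93 and 2.44. Of the 19 other genes of the table with such a hairpin, 0 rose and 1 fell by limma (1 higher and 4 lower at an unadjusted p of 0.05), with a median of 0.02. At that unadjusted p, 1515 of all 11111 genes were higher and 1748 were lower.

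Tfrc (chromosome 16, 32608920 to 32632794, plus strand) encodes the receptor for transferrin-bound iron, and its 3' untranslated region is a known target of Regnase-1 as well as of the iron regulatory proteins. Its reads were 1386 and 1297 in the controls and 1100 and 1155 in the treated libraries. The log2 difference was -0.21 (SE 0.09), and it was -0.11 without Reg1-MOs replicate 1. Both Reg1-MOs libraries lay below both controls, though the nearest pair of libraries differed only 0.955-fold. Per length of mRNA, the ratio of the export gene Slc40a1 to the uptake gene Tfrc was 0.254 and 0.248 in the controls and 1.78 and 1.4 with Reg1-MOs. Tfrc mRNA per length thus exceeded Slc40a1 mRNA in both controls and was below it in both treated libraries; by normalized reads, without length, the ratio in the treated libraries was 1.23 and 0.968.

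Cp (chromosome 3, 19957054 to 20009145, plus strand) encodes the copper oxidase that converts exported iron to the form transferrin carries. The controls held 11486 and 12692 of its reads and the treated libraries 6559 and 6444, a log2 difference of -0.85 (SE 0.08). It was lower in both treated libraries, opposite in direction to the exporter Slc40a1. Cp shares exonic bases with Hps3 on the opposite strand, which had 1208 to 1512 reads. Stromal and fibroblast markers were also lower in the same libraries (0.453 times), and their part in the Cp value was not tested.

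Steap4 (chromosome 5, 7960457 to 7982213, plus strand) encodes a metalloreductase of the plasma membrane and endosomes that acts on iron and copper. The controls held 110 and 123 of its reads and the treated libraries 34 and 48, a log2 difference of -1.47 (SE 0.23). It had the fewest reads and the widest error of the 10 genes, and leaving out 1 library gave -1.78 to -1.17. Stromal and fibroblast markers fell in the same libraries, with a median log2 difference of -1.38, and their part in the Steap4 value was not tested.

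**Figure D3:**
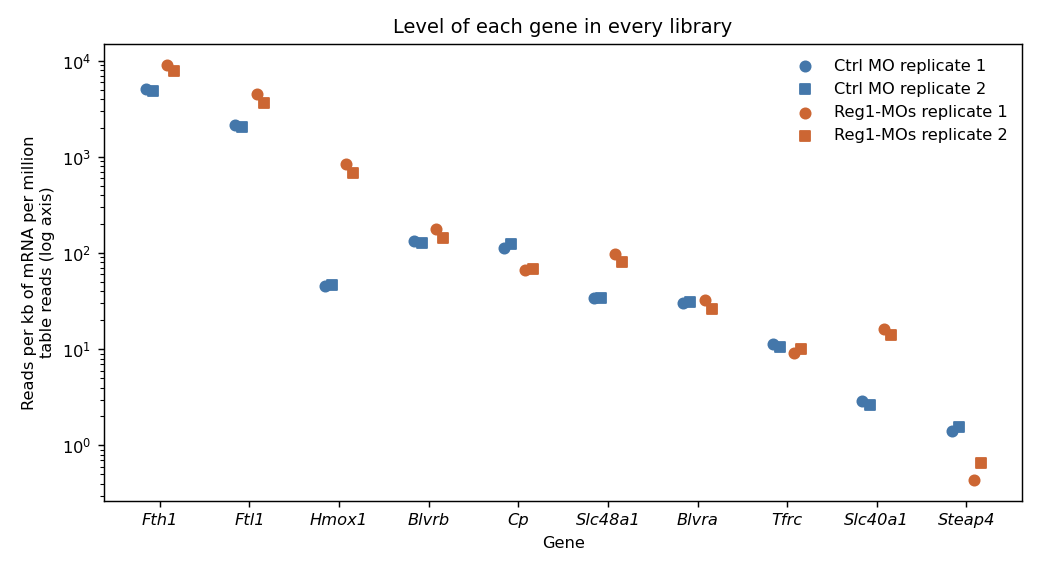
Level of each gene in every library as reads per kb of mRNA per 1000000 table reads, on a log axis, genes ordered by their mean. Blue points are the 2 Ctrl MO libraries and orange points the 2 Reg1-MOs libraries. Hmox1 moves from 45.5 and 46.1 to 834 and 677, and the ferritin genes lie highest in all 4 libraries.

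Levels of the genes relative to each other were compared per length, in reads per kb of mRNA per 1000000 table reads, with the length of 1 transcript model per gene. In the Ctrl MO libraries the order of the mean levels was Fth1 (4912), Ftl1 (2094), Blvrb (131), Cp (120), Hmox1 (45.8), Slc48a1 (33.9), Blvra (30.7), Tfrc (11.0), Slc40a1 (2.75) and Steap4 (1.47). No neighbours in this order overlapped between their libraries, and the closest neighbours were Blvrb (135 and 128) and Cp (114 and 125). In the Reg1-MOs libraries Hmox1 (755) came next after Fth1 (8421) and Ftl1 (4073). Blvrb (160), Slc48a1 (88.4), Cp (67.2), Blvra (29.2), Slc40a1 (15.2), Tfrc (9.62) and Steap4 (0.544) followed. Again no neighbours overlapped. Hmox1 and Slc48a1 passed above Cp, and Slc40a1 passed above Tfrc.

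The Reg1-MOs libraries also differed from each other in these genes. Replicate 1 was above replicate 2 in 7 of the 10 genes, by 0.15 to 0.26 on the log2 scale in Hmox1, Slc48a1, Blvra, Blvrb, Slc40a1, Fth1 and Ftl1. It was below replicate 2 in Tfrc (-0.20), Cp (-0.10) and Steap4 (-0.62). Over all genes the median of this difference was -0.01, with 48.3% above 0. Between the Ctrl MO libraries the same difference had a median of 0.02 over the 10 genes, and it was 0.13 in Slc40a1 and -0.15 in Cp, so for these genes the controls differed about as much as the treated libraries. In Zc3h12a, replicate 1 exceeded replicate 2 by 0.08.

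Among the genes whose pattern over the 4 libraries was most like that of Hmox1 were Cdkn1c and Itgb7, at distances of 1.19 and 1.35 (Euclidean distance of log2 values centred on each gene's mean, among genes averaging 50 reads or more). Hmox1 thus had no close neighbour, since its difference exceeded all others. Among those most like Slc40a1 were Uchl1 (0.22) and Itgb7 (0.25). Itgb7, for example, had 121 and 110 reads against 757 and 686.

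Beside the 10 genes, 81 other genes of iron and haem handling in 5 lists were looked up, and 65 were measured. Of these, 6 rose and 5 fell by limma, against 691 (6.22%) and 670 (6.03%) of all genes, and their median log2 difference was 0.00. With a fit without a variance trend 0 of them rose and 2 fell. Each list below is small, so nothing is read from its counts.

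**Figure D4:**
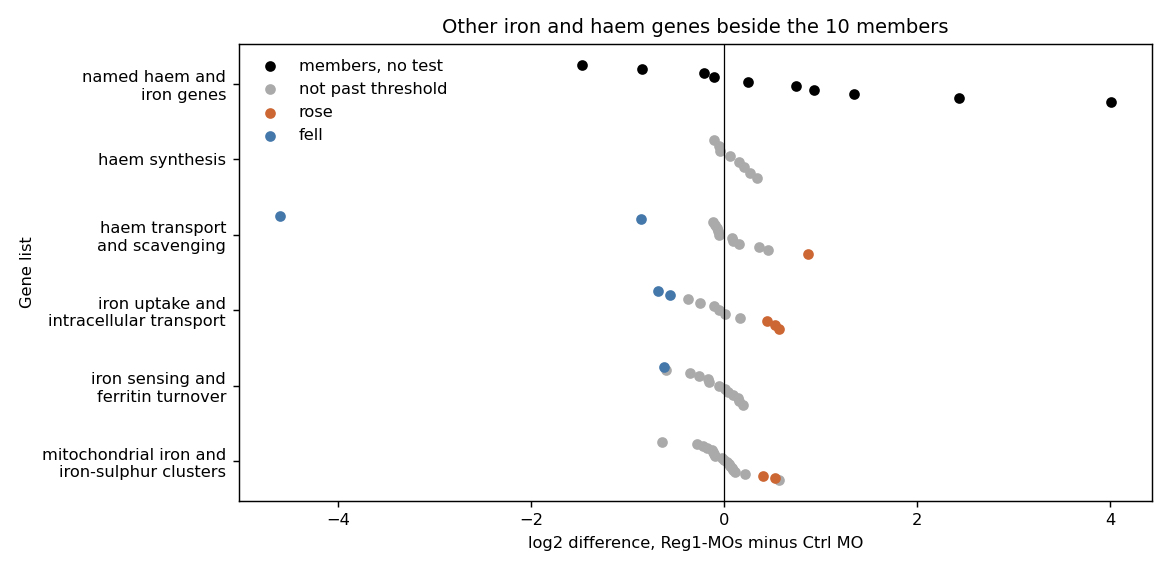
Log2 difference between Reg1-MOs and Ctrl MO of the 10 genes (black, no test) and of 65 other measured genes in 5 lists (grey, not past the threshold; orange, rose; blue, fell). The haem synthesis genes lie between -0.10 and 0.34, while the lists of transport genes hold both rises and falls.

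Haem synthesis makes haem from glycine and succinyl-CoA, and 8 of its 9 genes were measured. By limma 0 rose and 0 fell (6.22% and 6.03% of all genes did), and the median was 0.11. At an unadjusted p of 0.05, 1 was higher and 0 were lower (1515 and 1748 of all 11111 genes). The first enzyme, Alas1, had 5291 and 5261 reads against 7102 and 5418, a difference of 0.27 (SE 0.09, adjusted p = 0.0971). It passed without Reg1-MOs replicate 2 (0.41, adjusted p = 0.0295). Urod, uroporphyrinogen decarboxylase, stood at 0.15 (SE 0.10, adjusted p = 0.354).

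Of 16 genes of haem transport and scavenging, 13 were measured, with a median of -0.05. By limma 1 rose and 2 fell (6.22% and 6.03% of all genes did). Cd163, the receptor for haemoglobin bound to haptoglobin, had 71 reads in each control and 1 and 5 with Reg1-MOs. Over the summed reads that was 22.7-fold lower, with an exact 95% counting interval of 10.2 to 62.8 (limma adjusted p = 0.00416, and 0.0575 without a variance trend). Lrp1, the receptor for haem bound to haemopexin and for many other ligands, had 14027 and 15763 reads against 7984 and 7995, a difference of -0.86 (SE 0.08, adjusted p = 0.00153). Slc46a1, a transporter of folate and haem, rose from 35 and 36 reads to 73 and 55 (0.87, SE 0.20, adjusted p = 0.0305). That call ended without a variance trend (limma adjusted p = 0.0517). With 1 library left out the difference of Slc46a1 was 0.73 to 1.01. Pgrmc1, a haem-binding membrane protein, stood at -0.07 (SE 0.07, adjusted p = 0.544). Stromal markers fell to 0.453 times in the same libraries, and their part in these falls was not tested.

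Of 18 genes of iron uptake and of endosomal and cytosolic iron transport, 11 were measured, with a median of -0.05. By limma 3 rose and 2 fell (6.22% and 6.03% of all genes did). Slc11a1, the iron and manganese pump of the phagosome membrane known as NRAMP1, had 5720 and 5575 reads against 8005 and 6977 (0.44, SE 0.06, limma adjusted p = 0.00602). Steap3, the ferrireductase of the endosome, rose by 0.57 (SE 0.08, adjusted p = 0.00488), from 1247 and 1315 reads to 2011 and 1699. Mcoln1, a cation channel of the lysosome that also passes iron, rose by 0.53 (SE 0.08, adjusted p = 0.00797), from 523 and 511 reads to 746 and 706. Slc11a2, the iron transporter of the endosome known as DMT1, stood at 0.01 (SE 0.07, adjusted p = 0.918), and its groups overlapped. The calls of Slc11a1, Steap3 and Mcoln1 ended without a variance trend (limma adjusted p = 0.0694, 0.0585 and 0.0529). With 1 library left out their differences were 0.41 to 0.48, 0.51 to 0.63 and 0.51 to 0.55.

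Trf, transferrin, the plasma carrier of iron, had 15346 and 15376 reads against 10175 and 8505 and fell by 0.68 (SE 0.07, limma adjusted p = 0.0019). Slc39a8, a transporter of zinc, manganese and iron, fell by 0.56 (SE 0.12, limma adjusted p = 0.0233), a call lost without a variance trend (0.0835). With 1 library left out its difference was -0.67 to -0.45. The carrier Trf and the oxidase Cp, which act on exported iron outside the cell, were both lower, beside the fall of stromal markers, whose part was not tested. Pcbp2, an RNA-binding protein that also carries iron to ferritin, stood at -0.10 (SE 0.06, adjusted p = 0.298).

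Of 18 genes of iron sensing, ferritin turnover and the hepcidin pathway, 13 were measured. By limma 0 rose and 1 fell (6.22% and 6.03% of all genes did), and the median was -0.05. At an unadjusted p of 0.05, 1 was higher and 4 were lower (1515 and 1748 of all 11111 genes). Spic, a transcription factor of iron-recycling macrophages of the spleen, fell by 0.62 (SE 0.12, adjusted p = 0.0187), from 259 and 290 reads to 192 and 156. That call ended without a variance trend (limma adjusted p = 0.0698). With 1 library left out the difference of Spic was -0.71 to -0.54. Nfe2l2, which encodes the transcription factor NRF2, stood at 0.14 (SE 0.06, adjusted p = 0.176), and Keap1, its inhibitor, at 0.01 (SE 0.07, adjusted p = 0.945). The transcripts of NRF2 and KEAP1, known regulators of Hmox1, ferritin and ferroportin genes, did not pass the threshold. These are mRNA levels only, and the activity of the proteins was not tested.

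All 20 genes of mitochondrial iron and iron-sulphur cluster assembly were measured. By limma 2 rose and 0 fell (6.22% and 6.03% of all genes did), and the median was 0.01. At an unadjusted p of 0.05, 4 were higher and 0 were lower (1515 and 1748 of all 11111 genes). Slc25a37, mitoferrin, which carries iron into mitochondria, rose by 0.40 (SE 0.10, adjusted p = 0.0368), from 924 and 945 reads to 1154 and 1245. It did not pass without a variance trend (limma adjusted p = 0.134), and with 1 library left out its difference was 0.28 to 0.52. Lyrm4, a partner of the cluster-forming desulphurase, rose by 0.53 (SE 0.14, limma adjusted p = 0.0473) and did not pass without a variance trend (0.075). With 1 library left out its difference was 0.45 to 0.61. The scaffold gene Iscu stood at -0.09 (SE 0.09, adjusted p = 0.568) and Nubp2, of cytosolic cluster assembly, at 0.00 (SE 0.08, adjusted p = 0.99).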

How the data were processed

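RNA was sequenced from poly(A) RNA with a directional kit, per the labels' protocols. The authors deposited 1 table of log2 values for 11111 genes in 4 libraries. The tools were HISAT2, cutadapt and FastQC, with build mm10, per the submitters' processing notes. How reads were counted, filtered and scaled is not given in the sources used here. On the linear scale, every deposited value was a whole number of reads plus 0.5, times 1 constant per library (within 0.01 reads for 100% of genes), which gave the reads.

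Differences were fitted with limma 3.58.1 (R 4.3.3, with a mean-variance trend, two-sided, group as the only term) to the log2 values of the whole table, unfiltered and as deposited. P-values were Benjamini-Hochberg adjusted over all genes, with a threshold of 0.05. The fit was run on simulated independent libraries with the same dispersion for every gene. That setting is simpler than these data, so it does not show how reliable the calls here are. Libraries were grouped by their titles.

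The members and lists were chosen with earlier results of these data known. Named besides the members were Zc3h12a and, in each list, up to 4 genes past the threshold per direction and the 2 of highest level per length. Slc11a2 was named outside this rule, as were Hdac7 and Hps3, which overlap members, and the markers Epor and Kit. The genes nearest in pattern to Hmox1 and Slc40a1 were named as well, except an item that is not reported here. Positions, transcripts and mRNA lengths (longest principal transcript) come from GENCODE M21, which held 11088 of 11090 Ensembl identifiers. Searches farther upstream, and protein sequences, were not analysed here.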

Additional observations from a re-analysis of the deposited data

How the results depend on the processing

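With 2 libraries per group, counts of calls depended on the fit. The largest differences of the members moved little over the alternatives, with Hmox1 at 3.88 to 4.14 and Slc40a1 at 2.37 to 2.51. Smaller ones moved more for their size, with Blvrb at 0.13 to 0.38 and Tfrc at -0.31 to -0.11. Steap4 ran from -1.78 to -1.17. Of the 10 members, 9 kept their direction under all 10 alternatives, but most alternatives could not have changed it. The groups of these 9 did not overlap, so leaving out 1 library could not turn the direction. Dropping the variance trend, adding the replicate block or requiring a minimum of mean reads left the log2 differences unchanged. The members were also chosen with this contrast known, so nothing is read from this count. Blvra, at -0.23 to 0.03 with 1 library left out, turned to 0.03 without Reg1-MOs replicate 2. Fth1 was 0.56 with quantile normalization. Falls among members were 2 as deposited, 1 without a variance trend and 3 with a replicate block, and rises were 5 to 6 with 1 library left out. Over all genes, 195 rose and 182 fell without a variance trend, and leaving out 1 library gave 249 to 530 rises and 258 to 860 falls. Rises made up 50.8% of the calls as deposited, 38.1% without Reg1-MOs replicate 2.

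The replicate numbers are shared between the groups, but no label says that they pair the libraries. The deviations of same-numbered libraries from their group means had r = 0.314 across 9476 genes, with 2 pairs. With 2 libraries per group, the opposite matching gives the same value with the opposite sign by construction. The sign of r therefore cannot show whether the libraries were paired. With a replicate block, 1532 genes rose and 1891 fell. With that block, the other iron and haem genes had 13 rises and 11 falls. By list under the block, haem synthesis had 1 rise and 0 falls, haem transport 3 rises and 2 falls, and iron uptake 4 rises and 4 falls. Iron sensing had 1 rise and 5 falls, and mitochondrial iron 4 rises and 0 falls. Alas1 passed (limma adjusted p = 0.000562).

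Among the other iron and haem genes together, there were 0 rises and 2 falls without a variance trend. Without a variance trend, haem transport had 0 rises and 1 fall, iron uptake 0 rises and 1 fall, iron sensing 0 falls and mitochondrial iron 0 rises. Haem transport had 2 rises with equal totals, 3 with quantile normalization, and 0 rises and 1 fall among genes averaging 50 reads or more, where fewer genes were tested. Iron sensing had 2 falls with equal totals and 2 with quantile normalization. Counts by list are not given for the fits with 1 library left out. With 1 library left out, Hmox2 ranged from -0.01 to 0.18, Iscu from -0.18 to 0.01, Keap1 from -0.03 to 0.05 and Nubp2 from -0.04 to 0.04. Hmox2 was -0.01 without Reg1-MOs replicate 1; Iscu was 0.01 without Reg1-MOs replicate 2; Keap1 was -0.03 without Ctrl MO replicate 2 and -0.01 without Reg1-MOs replicate 2. Nubp2 was 0.02 with equal totals, 0.01 with quantile normalization, 0.01 without Ctrl MO replicate 1 and 0.04 without Reg1-MOs replicate 2. The cause of these changes was not tested.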
